A study of Mus musculus with 8 samples.

Results

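The proximal end of mouse chromosome 1 was examined in 8 Hi-C libraries of mouse embryonic stem cells (mESCs) as 270 bins of 100 kb, from chr1:3000001-3100000 to chr1:29900001-30000000 of the mm10 genome. All 270 bins were scored in all 8 libraries, out of 1924 such bins on chromosome 1 and 23972 on the 19 autosomes, and the other 1654 bins of chromosome 1 served as the reference. The region was chosen on the difference between the Suv39h DKO and Suv39h WT libraries in these same scores, so that difference is described here without a test. The same holds for everything that follows directly from those libraries' levels, and no test of the region against the rest of the genome was possible from it.

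Hi-C counts contacts between pairs of loci in fixed nuclei. The compartment score used here is the first eigenvector of each chromosome's contact map, and it has no physical unit. A positive score marks the A compartment of active chromatin, and a negative score marks the B compartment of inactive chromatin, which overlaps lamina-associated domains and domains of histone H3 lysine 9 dimethylation. SETDB1, SUV39H1, SUV39H2, G9a and GLP are the enzymes that methylate this lysine. SUV39H1 and SUV39H2 are best known for trimethylation at pericentromeric repeats, and on the acrocentric mouse chromosomes the first scored bins lie nearest to those repeats. Because a score is set by contacts along the whole chromosome and averages 0 over it, a higher score at the proximal end is balanced by lower scores elsewhere on chromosome 1.

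The libraries were made to ask whether loss of H3K9 methyltransferase activity bears on nuclear compartments. The 4 Setdb1 groups all came from the conditional knockout line #33-6, in which 4-hydroxytamoxifen (4-OHT) removes SETDB1. Setdb1 WT was untreated, Setdb1 WT + UNC had UNC0642, an inhibitor of G9a and GLP, at 2 µM for 3 days, Setdb1 KO had 4-OHT at 800 nM for 5 days, and Setdb1 KO + UNC had 4-OHT for 2 days followed by UNC0642 for 3 days. Suv39h WT and Suv39h WT + UNC were the clone ADF1-26, without and with the same UNC0642 treatment. Suv39h DKO and Suv39h DKO + UNC were the clone ADF157, which lacks SUV39H1 and SUV39H2. WT and DKO are therefore separate clones, and clone and genotype cannot be told apart. Each group had 1 file of scores, called a library here, and no replicate file. The score files hold no gene expression, so the cell type could not be checked against marker genes, and no contact counts. The study lists read numbers for each Hi-C repeat, but which repeat a score file holds is not given in the sources used here, so depth was not set beside the scores. Nor do they show the copy number or structure of chromosome 1 in either clone.

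The proximal region was most A-like in Suv39h WT. The mean over its bins was 0.0107 for untreated Suv39h WT and 0.00460 after UNC0642, and 0.00427 for untreated Suv39h DKO and -0.00192 after UNC0642. Setdb1 WT had 0.00124 untreated and -0.00119 after UNC0642, and Setdb1 KO had 0.00163 untreated and 0.00185 after UNC0642. Suv39h WT was thus alone at the top, Suv39h WT + UNC and Suv39h DKO lay together below it, and Suv39h DKO + UNC lay just below the 4 Setdb1 libraries. The means over the rest of chromosome 1, from -0.00175 in Suv39h WT to 0.000314 in Suv39h DKO + UNC, are fixed by these, since each library averages 0 over the chromosome.

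The share of A bins was also highest in Suv39h WT and lowest in Suv39h DKO + UNC. Of the 270 bins, 198 (73.3%) were A in untreated Suv39h WT and 167 after UNC0642, and 156 in untreated Suv39h DKO and 117 (43.3%) after UNC0642. Setdb1 WT had 148 A bins untreated and 122 after UNC0642, and Setdb1 KO had 154 and 151. When the region was divided into 27 windows of 1 Mb, Suv39h WT had the highest score of the 8 libraries in 25 windows, while Suv39h DKO + UNC had the lowest in 14 and Setdb1 WT + UNC in 9.

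**Figure D1:**
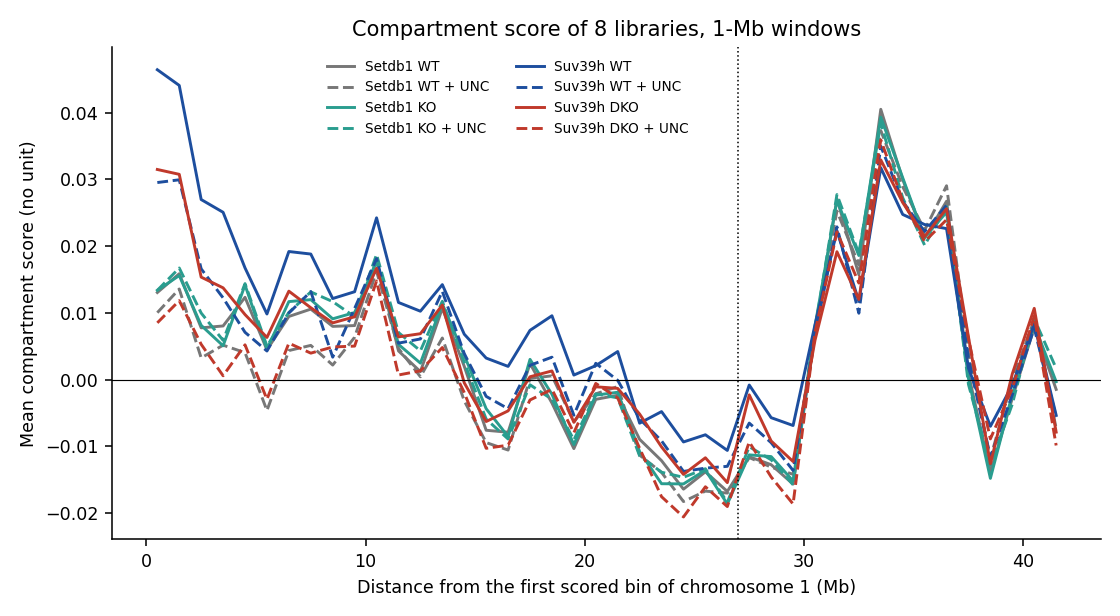
Mean compartment score in 1-Mb windows (no unit) against the distance in Mb from the first scored bin of chromosome 1, 1 line per library, dashed with UNC0642; the dotted line at 27 Mb marks the end of the region. Suv39h WT starts at 0.0464 and stays above the other libraries in 25 of the 27 windows.

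The largest separation was at the very start. Over the first 4 Mb, from 3 to 7 Mb, the mean of 40 bins was 0.0356 in untreated Suv39h WT and 0.0221 after UNC0642, and 0.0228 in untreated Suv39h DKO and 0.00655 after UNC0642. Setdb1 WT had 0.0112 untreated and 0.00800 after UNC0642, and Setdb1 KO had 0.0105 and 0.0115. Of the Suv39h line, 3 libraries lay above the range of the Setdb1 line and Suv39h DKO + UNC lay below it. Over the next 23 Mb Suv39h WT was again the highest and Suv39h DKO + UNC the lowest, at a smaller scale, with means of 0.00637 (WT) and 0.00104 (DKO) untreated and 0.00156 (WT) and -0.00340 (DKO) after UNC0642 in the Suv39h line, and between -0.00279 and 0.000175 for the Setdb1 libraries.

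**Figure D2:**
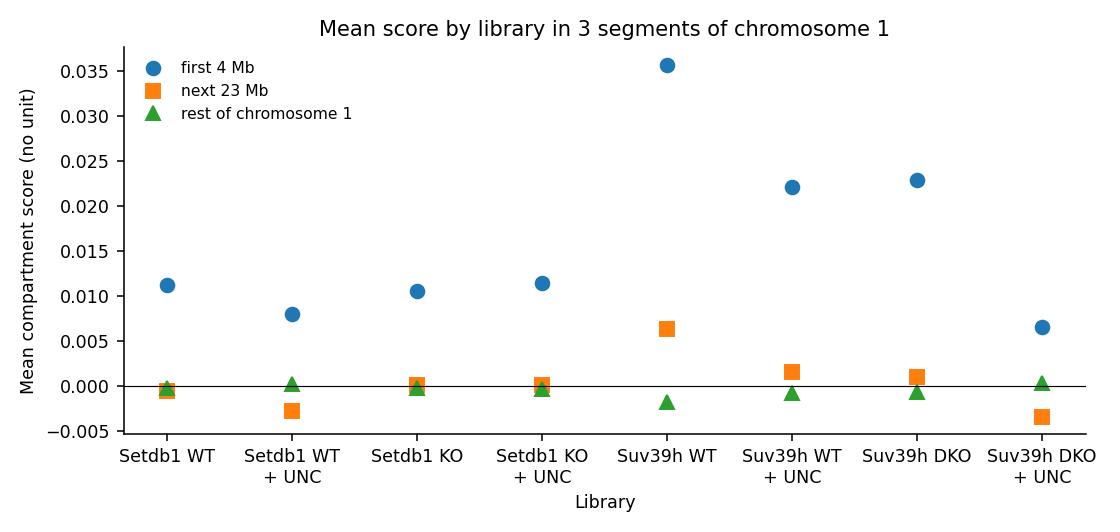
Mean compartment score (no unit) of each of the 8 libraries in 3 segments of chromosome 1: circles for the first 4 Mb, squares for the next 23 Mb and triangles for the rest. The first 4 Mb spread from 0.00655 in Suv39h DKO + UNC to 0.0356 in Suv39h WT, while the triangles stay close to 0, as the centring of each library over the chromosome requires.

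Suv39h DKO was below Suv39h WT both without and with UNC0642. The mean difference over the 270 bins was -0.00643 without and -0.00652 with UNC0642. In each pair 26 of the 27 windows were below 0, and the exceptions were the window starting at 25 Mb without UNC0642 (0.00136) and that starting at 11 Mb with UNC0642 (0.00153). In the rest of the chromosome 57 and 45 of 165 windows were below 0. Without UNC0642, 95 of 270 bins were lower by at least 0.01 (35.2%), against 3.73% of all autosomal bins, and 7 were higher by that much, against 3.64%. With UNC0642, 76 bins were lower by at least 0.01 (28.1%), against 3.86% of all bins, and 0 were higher, against 2.98%. These shares describe the contrast by which the region was selected, and nothing is read from them. At the edge of the region, the last bin inside (starting at 29.9 Mb) differed by -0.00654 and 0.000475 in the pairs without and with UNC0642, and the first bin outside by 0.00461 and 0.00649.

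The mean score of the region was lower with UNC0642 in both Suv39h clones. The difference was -0.00610 in Suv39h WT and -0.00619 in Suv39h DKO. For the Setdb1 line the WT pair gave -0.00243 and the KO pair 0.000223, a value whose sign depends on how the scores are centred. The KO pair also differed in 4-OHT, given for 5 days without UNC0642 and for 2 days before it. The mean of the 4 pairs was -0.00363 ± 0.00311 (SD, n = 4 pairs), and a two-sided exact sign-change permutation test gave p = 0.25, where 0.125 is the smallest value that 4 pairs allow, so the test could not reach 0.05. It also includes the 4 Suv39h libraries on which the region was selected, and nothing is read from it. The comparison of SUV39H1/2 loss with UNC0642 and the comparison of UNC0642 with no treatment in this line are drawn from the same 4 libraries and are not independent.

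In Suv39h WT, 80 of 270 bins were lower by at least 0.01 with UNC0642 (29.6%, against 2.53% of all autosomal bins) and 3 were higher (against 2.26%). In Suv39h DKO, 78 bins were lower (28.9%, against 3.69%) and 5 were higher (against 3.04%). In Setdb1 WT, 25 bins were lower (9.26%, against 4.62%) and 2 were higher (against 3.51%). In Setdb1 KO, 6 bins were lower (2.22%, against 0.934%) and 1 was higher (against 0.755%). The share of lower bins was thus above that of all bins in all 4 backgrounds. Both Suv39h comparisons use libraries on which the region was selected.

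Per bin, no UNC0642 difference passed the test. In the limma fit over all 23972 bins and 8 libraries, with the cell background as a block, 0 of the 270 bins had an adjusted p under 0.05 (Benjamini-Hochberg; lowest adjusted p = 0.859), and the share called among all bins was 0%. At an unadjusted p under 0.05, 71 bins of the region were lower and 1 was higher with UNC0642, together 26.7% of the 270, against 4.95% of all bins, and 221 of 270 estimates were below 0. Without the Suv39h WT pair 39 bins were lower and 1 was higher at that level, 14.8% of the region against 4.05% of all bins. Without the Suv39h DKO pair 43 were lower and 3 were higher, 17.0% against 3.94%. The term for a different UNC0642 response in the 2 lines was also called in 0 bins (0% of all bins; lowest adjusted p = 1.00), with 53 bins lower in the Suv39h line and 2 higher at an unadjusted p under 0.05, 20.4% of the region against 3.67% of all bins. The fits include the 4 Suv39h libraries on which the region was selected, so the shares at an unadjusted p are a description. Neighbouring bins share contacts, so these counts are not counts of independent events.

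**Figure D3:**
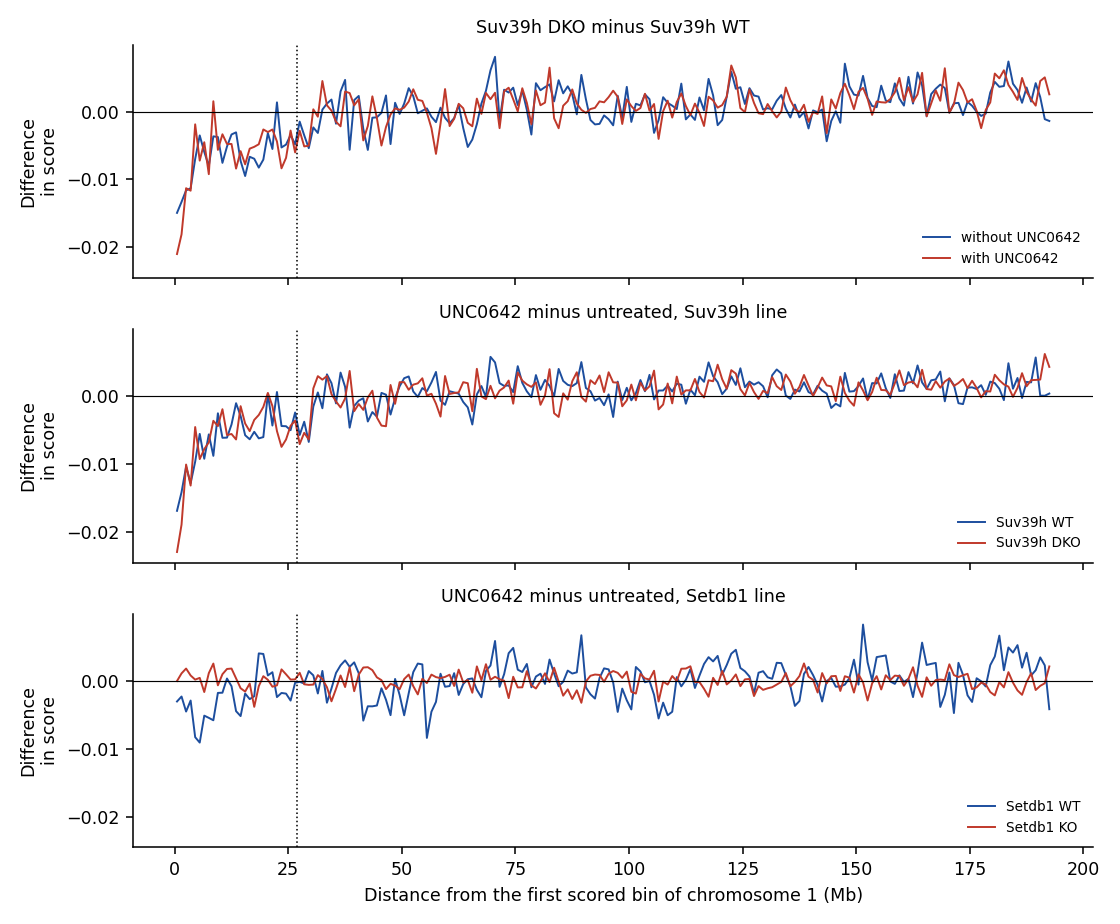
Differences in mean compartment score per 1-Mb window along chromosome 1, against the distance in Mb from its first scored bin: Suv39h DKO minus Suv39h WT (top), and UNC0642 minus untreated in the Suv39h line (middle) and the Setdb1 line (bottom). The top and middle panels start between -0.0230 and -0.0149 and lie on both sides of 0 past 30 Mb of distance, while the bottom panel has no such start.

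Setdb1 KO was close to Setdb1 WT without UNC0642 and somewhat above it with UNC0642. The mean difference over the region was 0.000391 without UNC0642 and 0.00304 with it, the latter with Setdb1 WT + UNC as the lower library. Without UNC0642, 3 of 270 bins were higher by at least 0.01 (against 1.40% of all bins) and 5 were lower (against 0.880%). With UNC0642, 33 were higher (12.2%, against 7.16%) and 2 were lower (0.741%, against 5.79%). In the limma contrast of SETDB1 loss 0 bins of the region were called (0% of all bins; lowest adjusted p = 0.335), and 18 bins were higher and 2 lower at an unadjusted p under 0.05, together 7.41% of the region against 9.10% of all bins.

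The 2 untreated wild types were further apart in this region than either knockout was from its own wild type. Suv39h WT was above Setdb1 WT by 0.00947 on average over the region and was above it in all 27 windows, from 0.00242 in the window starting at 25 Mb to 0.0334 in that starting at 3 Mb. Of the 270 bins, 104 were higher by at least 0.01 (38.5%, against 5.68% of all bins) and 0 were lower by that much (against 6.27%). Suv39h DKO + UNC, by contrast, was below the mean of the 4 Setdb1 libraries by 0.00280 over the region. The comparison between lines includes every difference between 2 independently made cell lines, and it used the Suv39h WT library by which the region was chosen.

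The difference between the Suv39h clones ended in 2 steps. By the rule that 1-Mb windows from 3 Mb onward must be lower by at least 0.01 in both pairs, the run ended at 7 Mb. The 4 windows before that were lower by 0.0149, 0.0133, 0.0116 and 0.0113 without UNC0642 and by 0.0210, 0.0181, 0.0113 and 0.0117 with it. In the window starting at 7 Mb the differences were -0.00698 and -0.00188. The same end of 7 Mb was found with each pair alone, with a threshold of -0.005, with windows of 2 Mb, and by asking for windows below the lowest window of the rest of chromosome 1, while windows of 500 kb gave 5.5 Mb. Each rule stops at the first window that fails, and windows past 7 Mb were as low again. Taken pair by pair, 14 windows of the region without UNC0642 and 10 with it lay below the lowest window of the rest.

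A smaller difference went on past 30 Mb. It averaged -0.00533 without and -0.00496 with UNC0642 from 7 to 30 Mb, and -0.00345 and -0.00433 from 30 to 33 Mb. From 33 to 36 Mb it was -0.00173 and 0.00137, and from 36 to 57 Mb it was 0.000113 and 4.55e-05. The first window at 0 or above in both pairs started at 35 Mb, and of the summed difference from 3 Mb to that point 29.9% lay before 7 Mb and 92.3% before 30 Mb. The limit of 30 Mb therefore falls inside the weaker difference and not at its end.

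A compartment border lay between 30 and 35 Mb. The stretch before the border, which holds Khdrbs2, an RNA-binding splicing regulator of neurons, was B in all 8 libraries at the gene's start (from -0.0219 in Suv39h DKO + UNC to -0.00322 in Suv39h WT). The stretch after the border holds Prim2, the large subunit of DNA primase, and Bag2, a co-chaperone, and their bins were A in all 8. The change from B to A began in the bin starting at 33.4 Mb in Setdb1 KO, Suv39h WT, Suv39h WT + UNC and Suv39h DKO + UNC and in the bin starting at 33.5 Mb in the other 4 libraries, so the border itself was shared to within 1 bin. In the 3 Mb before 33 Mb Suv39h WT was above Setdb1 WT by 0.00886, and in the 3 Mb after it was below by 0.00246. Just past 30 Mb, the bin of Ptp4a1, a protein tyrosine phosphatase, scored 0.0154 in untreated Suv39h WT and 0.00993 after UNC0642, and 0.00651 in untreated Suv39h DKO and 0.00464 after UNC0642, against -0.00872 in Setdb1 WT.

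Within the Suv39h line, the proximal ends of the other autosomes showed much smaller differences. In the first 2 scored Mb, Suv39h DKO was below Suv39h WT by 0.0141 without and 0.0196 with UNC0642 on chromosome 1. On the 18 other autosomes the difference ran from -0.00370 to 0.00299 without and from -0.00235 to 0.00254 with UNC0642. UNC0642 in the Suv39h line gave -0.0155 (WT) and -0.0209 (DKO) on chromosome 1, and at the lowest -0.00370 and -0.00177 elsewhere. Suv39h WT exceeded Setdb1 WT by 0.0308 at this end, and the difference ran from -0.0147 to 0.00351 at the proximal ends of the other autosomes. In the Setdb1 line the value on chromosome 1 (-0.00265 for UNC0642 in Setdb1 WT) lay inside the range of the others, -0.0177 to 0.00392. SETDB1 loss with UNC0642 gave 0.00324 on chromosome 1, also inside the range of the others, -0.00704 to 0.0239.

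**Figure D4:**
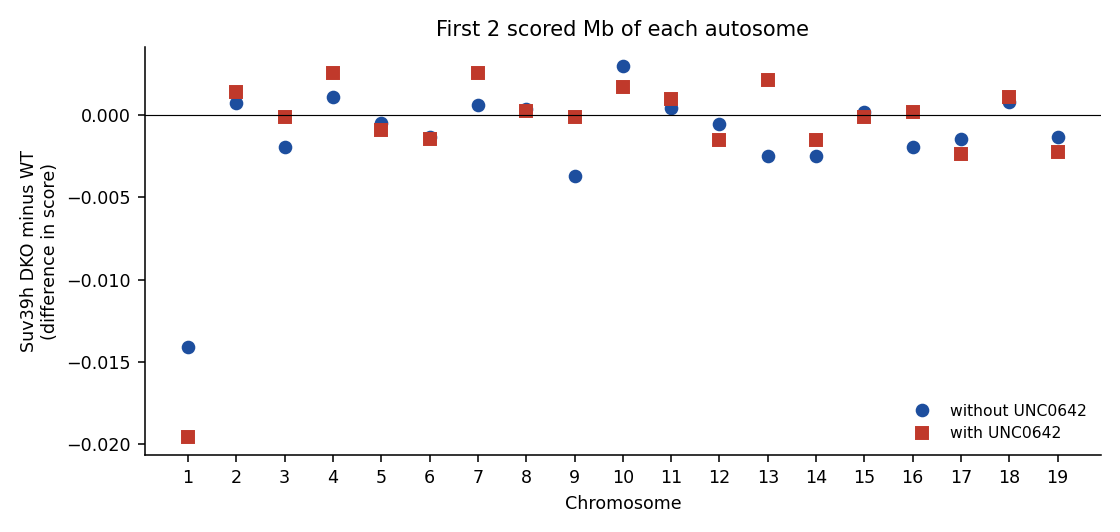
Mean difference in compartment score, Suv39h DKO minus Suv39h WT, over the first 2 scored Mb of each of the 19 autosomes, without UNC0642 (circles) and with it (squares). Chromosome 1 has -0.0141 and -0.0196, and the other 18 autosomes lie between -0.00370 and 0.00299.

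The profile of the region also varied more among libraries than other stretches did. Across its 270 bins, Pearson r between 2 libraries ran from 0.789 to 0.932 over the 28 pairs, with a median of 0.849. Over the rest of chromosome 1 it ran from 0.963 to 0.988. Among 79 other stretches of 27 Mb on the autosomes, the lowest r of a stretch was between 0.833 and 0.983, so none was as low as the proximal region. Some first stretches of other autosomes were also low, with 0.853 on chromosome 9, 0.857 on 12, 0.859 on 10 and 0.861 on 13. The first stretches of the other autosomes ran up to 0.972, on chromosome 7. Within the Setdb1 line the region's r was 0.881 to 0.932, within the Suv39h line 0.789 to 0.891, and between lines 0.806 to 0.890. These correlations are descriptions across neighbouring bins, and the region also had small scores: their SD across bins, averaged over libraries, was 0.0128, with only 1 of the 79 other stretches lower. The lowest r was between Suv39h DKO and Suv39h DKO + UNC. The region was selected on these libraries, so nothing is read from its rank.

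**Figure D5:**
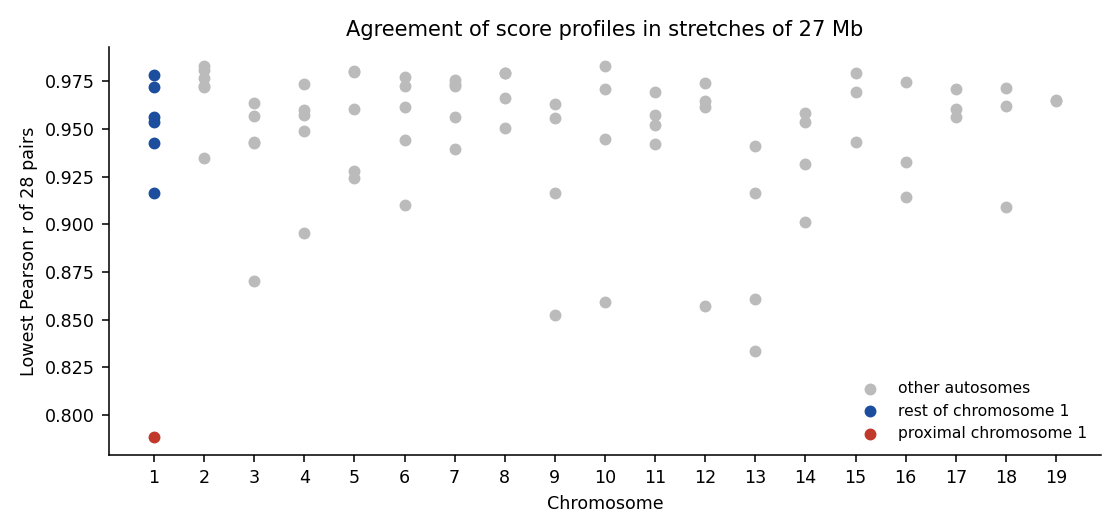
Lowest Pearson r among the 28 pairs of libraries, across the bins of each 27-Mb stretch, by chromosome; proximal chromosome 1 in red, the rest of chromosome 1 in blue, other autosomes in grey. The proximal region is at 0.789, and the next lowest stretch, on chromosome 13, is at 0.833.

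Many bins of the proximal region differed in compartment between libraries. Of the 270, 120 (44.4%) were A in some libraries and B in others, against 13.5% of the rest of chromosome 1. A further 92 bins were A in all 8 libraries and 58 were B in all 8. In 20 bins Suv39h WT alone was A, against 8 of 1654 bins in the rest of the chromosome. The counts of this paragraph that use Suv39h libraries describe libraries on which the region was selected, and nothing is read from them. Between Suv39h WT and Suv39h DKO, 51 bins (18.9%) were A in WT and B in DKO without UNC0642 and 57 (21.1%) with it, against 1.45% and 0.967% in the rest of chromosome 1. The reverse was seen in 9 (3.33%) and 7 (2.59%), against 4.78% and 3.81%. The number of bins that were A without and B with UNC0642 was 40 for Suv39h WT, 50 for Suv39h DKO, 34 for Setdb1 WT and 11 for Setdb1 KO, and in the rest of chromosome 1 from 1.27% to 1.51% of bins did so in these 4 backgrounds. The reverse numbers were 9, 11, 8 and 8, or 2.96% to 4.07% of the region, near the 1.63% to 4.05% in the rest of the chromosome. The sign of the score alternated along the region 27 to 41 times in the Setdb1 libraries, 43 to 51 times in Suv39h WT with or without UNC0642 and in untreated Suv39h DKO, and 63 times in Suv39h DKO + UNC.

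The longest A domain shared by all 8 libraries was the first 2.4 Mb, chr1:3000001-5400000. It averaged 0.0433 in untreated Suv39h WT and 0.0288 after UNC0642, and 0.0296 in untreated Suv39h DKO and 0.0105 after UNC0642, against 0.0114 to 0.0150 for the Setdb1 libraries. The domain was thus A throughout, with the libraries of the Suv39h line further apart than those of the Setdb1 line. Later shared A domains were smaller, with 1.3 Mb at chr1:12400001-13700000 the longest, and there the scores were closer: 0.0266 in untreated Suv39h WT, 0.0180 after UNC0642, 0.0182 in untreated Suv39h DKO, 0.0152 after UNC0642, and 0.0170 to 0.0196 for the Setdb1 libraries. The last shared B domain, chr1:28700001-30000000, is cut off by the end of the region, since the next bins were also B in all 8 libraries. It had -0.0106 and -0.0138 in Suv39h WT without and with UNC0642, -0.0153 and -0.0176 in Suv39h DKO, and -0.0177 to -0.0165 for the Setdb1 libraries.

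The region held the starts of 87 protein-coding genes in 64 of its bins. A gene's score below is that of the bin with its start, so genes in 1 bin share a value. Of the 87, 58 were A in all 8 libraries, 4 were B in all 8 and 25 were mixed. The gene lists used below were drawn up with earlier results of these data known, so their counts are descriptions only. All 21 genes listed as broadly expressed, in 17 bins, were A in all 8 libraries, and 15 of them were lower in Suv39h DKO than in Suv39h WT in both pairs. The same count was 69 of all 87 genes, 7 of 8 developmental regulators, 7 of 8 genes of the nervous system list and 11 of 12 other tissue-restricted genes. Over the 270 bins, 178 were lower in both pairs (65.9%), against 18.5% in the rest of chromosome 1, and 31 by at least 0.01 (11.5%), against 0.509% of all autosomal bins. Of 8 developmental regulators, 5 were A in all 8 libraries and 3 were mixed. Of 8 genes of the nervous system list, 1 was A in all 8, 1 was B in all 8 and 6 were mixed. That list includes the junctophilin gene Jph1, which was mixed. Of 12 other tissue-restricted genes, 6 were A in all 8 and 6 were mixed.

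In Suv39h WT the highest scores of any genes in the region were in the first 4 Mb. For genes, the 4 scores of the Suv39h line are given in the order WT, WT with UNC0642, DKO, DKO with UNC0642. The bin of Xkr4, of the XK-related family that includes phospholipid scramblases, had 0.0469, 0.0307, 0.0303 and 0.0106, and 0.0139 in Setdb1 WT. Sox17, a transcription factor of endoderm, and Rp1, a protein of the photoreceptor axoneme, shared a bin with 0.0473, 0.0286, 0.0317 and 0.0135, and 0.0175 in Setdb1 WT. The bin of Lypla1, a thioesterase, and Tcea1, a transcription elongation factor, had 0.0463, 0.0342, 0.0319 and 0.0294, and 0.0283 in Setdb1 WT. Suv39h DKO + UNC was therefore at the level of Setdb1 WT in the bin of Tcea1 and below it in those of Xkr4 and Sox17.

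Mrpl15, of the mitochondrial ribosome, had 0.0432, 0.0306, 0.0318 and 0.0144. The shared bin of Atp6v1h, a subunit of the vacuolar proton pump, and Rgs20, a regulator of G-protein signalling, had 0.0376, 0.0306, 0.0203 and 0.0115. Rb1cc1, which is needed to start autophagy, had 0.0408, 0.0248, 0.0147 and 0.00103, against 0.0187 in Setdb1 WT. Next to it, Alkal1, a ligand of the receptor kinase ALK, had 0.0331, 0.0166, 0.0142 and -0.000165, and St18, a zinc finger transcription factor, had 0.0312, 0.0145, 0.0224 and 0.00177. Of the receptor genes in this stretch, Oprk1 (the kappa opioid receptor) had 0.0217, 0.0103, 0.0172 and -4.54e-05, and Npbwr1 (a neuropeptide receptor) had 0.0224, 0.0119, 0.0172 and 0.00184. In each of these bins Suv39h WT was the highest and Suv39h DKO + UNC the lowest of the 4 Suv39h libraries.

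In the 2 Mb after the run the other 3 Suv39h libraries were no longer apart in the bin of Pcmtd1, which had 0.0327, 0.0233, 0.0222 and 0.0218, and 0.0223 in Setdb1 WT. Sntg1, a syntrophin of neurons whose gene body crosses this stretch, had 0.0109, 0.00489, -0.00149 and 0.00434 at its start.

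Prdm14, a regulator of pluripotency and germ cells, lay in a bin with 0.0365, 0.0342, 0.0333 and 0.0301 in the Suv39h line, where neither pair of clones differed by 0.01. Setdb1 WT had 0.0330 untreated and 0.0281 after UNC0642, and Setdb1 KO had 0.0323 and 0.0242, the last being the lowest of the 8. Among other developmental genes, Eya1, a transcriptional coactivator in ear and kidney development, had 0.0143, 0.00177, 0.000785 and -0.00403, and 0.0170 in Setdb1 WT. Tfap2d and Tfap2b, transcription factors of the AP-2 family, had 0.0114 and 0.00685 in Suv39h WT and -0.00138 and 0.00446 in Suv39h DKO. Rpl7 (a ribosomal protein) and Stau2 (an RNA-binding protein), both listed as broadly expressed, had differences between Suv39h DKO and Suv39h WT of 0.00576 and -0.00677 without UNC0642 and of -0.0131 and -0.0158 with it, so Rpl7 was higher in DKO in 1 of the pairs.

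The largest single lower value in Suv39h DKO without UNC0642 was chr1:10300001-10400000, in Cpa6, a carboxypeptidase, with -0.00195 against 0.0267 in Suv39h WT. With UNC0642 it was chr1:4100001-4200000, in Rp1, with 0.00471 against 0.0325. For UNC0642 in Suv39h WT it was chr1:6800001-6900000, in St18, with -0.000308 against 0.0310, and in Suv39h DKO chr1:3500001-3600000, in Xkr4, with 0.00514 against 0.0338. The largest higher values were at chr1:13800001-13900000 in both comparisons with untreated Suv39h WT, where that library had -0.00482, Suv39h DKO 0.0167 and Suv39h WT + UNC 0.00864. For SETDB1 loss the largest lower values were differences of -0.0153 at chr1:29100001-29200000 without UNC0642 and -0.0140 at chr1:26000001-26100000 with it. The largest higher values were 0.0131 against 0.000946 for Setdb1 KO over Setdb1 WT at chr1:11500001-11600000 and 0.0151 against -0.00387 for Setdb1 KO + UNC over Setdb1 WT + UNC at chr1:16900001-17000000, in Jph1, a junctophilin.

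Promoter sequences are shown for 4 genes that stand for the 3 kinds of bin: Mcm3, a subunit of the replicative helicase, in a bin that was A in all 8 libraries, Rims1, of the presynaptic active zone, and Col19a1, a collagen, in bins that were A in Suv39h WT alone, and Adgrb3, an adhesion receptor of neurons, in a bin that was B in all 8. They were chosen after their scores were seen, among the 24 of 87 genes with a RefSeq promoter entry. Each is the 250 bases before the RefSeq start on build GRCm38.p6, minus strand, 5′ to 3′, with every CG dinucleotide in capitals.
Mcm3, chr1:20820313-20820562: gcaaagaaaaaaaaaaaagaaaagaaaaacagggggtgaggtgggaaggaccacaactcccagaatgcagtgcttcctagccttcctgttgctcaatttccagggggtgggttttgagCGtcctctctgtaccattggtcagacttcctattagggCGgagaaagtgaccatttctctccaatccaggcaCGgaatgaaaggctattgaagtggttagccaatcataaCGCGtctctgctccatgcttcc
Rims1, chr1:22806159-22806408: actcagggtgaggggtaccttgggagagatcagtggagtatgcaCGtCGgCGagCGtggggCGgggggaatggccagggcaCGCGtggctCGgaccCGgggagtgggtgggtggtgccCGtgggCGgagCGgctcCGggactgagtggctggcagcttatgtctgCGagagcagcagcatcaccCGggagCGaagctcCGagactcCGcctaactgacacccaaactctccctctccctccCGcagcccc
Col19a1, chr1:24587438-24587687: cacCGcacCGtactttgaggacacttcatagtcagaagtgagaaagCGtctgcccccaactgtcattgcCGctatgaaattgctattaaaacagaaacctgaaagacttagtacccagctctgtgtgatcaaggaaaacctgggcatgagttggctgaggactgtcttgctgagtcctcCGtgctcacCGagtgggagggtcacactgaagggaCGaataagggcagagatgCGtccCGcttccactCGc
Adgrb3, chr1:25829708-25829957: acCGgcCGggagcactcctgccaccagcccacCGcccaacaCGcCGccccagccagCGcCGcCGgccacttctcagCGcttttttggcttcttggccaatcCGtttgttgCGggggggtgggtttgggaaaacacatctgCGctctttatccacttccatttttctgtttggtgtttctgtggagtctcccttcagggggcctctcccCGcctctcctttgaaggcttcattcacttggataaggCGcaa

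The CG count did not follow the compartment in these 4 genes. It was 5 in Mcm3, 19 in Rims1, 10 in Col19a1 and 14 in Adgrb3. Of 32851 promoters of the same length, 92.1% held at least 1 CG and the median held 6. The DpnII site GATC, at which the chromatin was cut, occurred once each in Rims1 and Col19a1 and in neither of the others, and in 41.9% of all promoters. In the order given above, Mcm3 scored 0.0287, 0.0210, 0.0151 and 0.0173. Rims1 scored 0.00167, -0.00824, -0.0121 and -0.00690, and Col19a1 0.00291, -0.00557, -0.00330 and -0.00864. Adgrb3 scored -0.00307, -0.00534, -0.00547 and -0.00604. The A calls of Rims1 and Col19a1 in Suv39h WT thus rest on scores close to 0.

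Base composition differed somewhat between the region and the rest of the chromosome. The median bin had 39.2% GC and 257.5 GATC sites in the region, against 41.1% and 247 in the rest, and 23.7% of its bins held the start of a protein-coding gene, against 38.3%. Across the region's bins, the score correlated with GC content at r = 0.485 in untreated Suv39h WT, 0.572 after UNC0642, 0.536 in untreated Suv39h DKO and 0.707 after UNC0642, and at 0.632 to 0.730 for the Setdb1 libraries. In the rest of chromosome 1 the same r was 0.798 to 0.866. The difference between the Suv39h clones itself had r of -0.0564 and 0.0848 with GC content, and 0.0209 and -0.153 with the number of GATC sites, without and with UNC0642. These are descriptions over 269 bins that share libraries and base composition.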

How the data were processed

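Hi-C was done on 8 groups of mESCs, with 1 score file each. The authors cut chromatin with DpnII, aligned reads to mm10 with the 4DN Hi-C pipeline, built contact matrices with Juicer Tools and deposited, per library, the compartment score of each 100-kb bin from KR-normalised intrachromosomal maps of the autosomes. The study names 2 biological repeats, and whether a file is 1 of them or both combined is not given in the sources used here. Bins present in all 8 files were used. Genes are from GENCODE vM21. Members, gene lists and the promoter genes were chosen with earlier results of these data known.

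Windows, domains and correlations were computed in Python 3.11.15 (scipy 1.17.1). Bins were tested with limma 3.58.1 (R 4.3.3), background as a block, after a run on simulated data. Alternatives were root-mean-square and quantile scaling, other centrings, bin sizes, thresholds and limma settings. The named genes were those of the run by the end rule and the 2 Mb after it, the listed genes, and those of the largest differences per pair. Precision is limited by 1 score file per group, and read depth was not used.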

Additional observations from a re-analysis of the deposited data

Results flagged for a closer look

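Comparisons made more than once pointed in different directions in the Setdb1 line, each with 1 library a side, and the difference between them was not tested. UNC0642 gave a slightly higher mean score in Setdb1 KO, by 0.000947 over 3 to 7 Mb, 9.67e-05 over 7 to 30 Mb and 0.000223 over the whole region, whereas in Setdb1 WT, Suv39h WT and Suv39h DKO all 3 means were lower with UNC0642. With the implied mean of each library subtracted, as described among the alternatives, the KO values over 7 to 30 Mb and over the whole region turned to -0.000155 and -2.94e-05, and only that over 3 to 7 Mb stayed above 0 (0.000695). SETDB1 loss gave a higher mean over 3 to 7 Mb with UNC0642 (0.00348) and a lower one without it (-0.000637). No group held enough libraries to look for a library apart from its group.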

How the results depend on the processing

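Of 64 alternative values, 56 stayed the same and 8 moved, and none of these reversed. The 56 include the limma counts, which were 0 in every setting. The 64 leave out the threshold of -0.02, which found no end. Also outside them is the UNC0642 difference in Setdb1 KO, whose sign turned with the implied mean subtracted. Averaged over both pairs, Suv39h DKO minus Suv39h WT over the region was -0.00648, and it was -0.00736 after quantile normalization, -0.00753 with scores centred on the rest of chromosome 1 and -0.00754 as residuals from Suv39h WT. The end of the difference moved from 7 Mb to 5.5 Mb with windows of 500 kb, and to 35 Mb both for the first window at 0 or above in both pairs and, chosen after seeing the data, for the run in which the mean of both pairs was below 0. The deposited scores average 0 over each chromosome, and the mean that a vector of unit length would have had was put back with either sign. With it added, the difference was -0.00710 without and -0.00575 with UNC0642, and with it subtracted -0.00576 and -0.00730, so the near equality of the pairs (-0.00643 and -0.00652) depends on the centring. With it subtracted, all 4 UNC0642 pairs were below 0 over the region. With a threshold of -0.02 no window met the rule, so no end was found. Bins of the region lower by at least 0.02 numbered 11 without and 12 with UNC0642. The share of all bins at that step was not counted, so nothing is read from these numbers. Calls by limma were 0 in every setting, also with each background pair left out. In the fit for UNC0642 without the background block, 26 bins were lower and 1 was higher at an unadjusted p under 0.05. Together these were 10.0% of the region, against 1.99% of all bins. Each group had 1 library and no replicate, so no pairing beyond the shared background could be checked. Depth was not used, and no depth-based error was set on any value.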

Other observations

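The deposited chromosome 1 scores were written with more than 8 digits in Setdb1 WT + UNC, Setdb1 KO and Suv39h WT + UNC, and not in the other 5 libraries. Untreated Suv39h WT and Suv39h DKO were thus alike in this, while with UNC0642 the clones differed. Whether the number of digits bears on the scores was not tested.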
